A study of Mus musculus with 12 samples.

Results

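The claudins are the membrane proteins of the tight junction, the belt that joins neighbouring epithelial cells near their apical side. The 10 genes described here (Cldn1, Cldn2, Cldn3, Cldn4, Cldn6, Cldn7, Cldn8, Cldn10, Cldn12 and Cldn23) were taken by gene symbol from the 52015 genes of the expression table, whatever their level. Expression was measured by RNA-seq in mpkCCD cells, a line of mouse cortical collecting duct cells, which was grown on tissue-culture plastic. Scr control cells had been transduced with a scramble gRNA that targets no gene, and Nfat5-KO cells were the CRISPR/Cas9-edited clones N1 and N3, so that the knockout rests on 2 clones of the same line. Both genotypes were kept for 5 days at 300 mosmol/kg (isotonic, groups Scr_300 and Nfat5-KO_300) or at 600 mosmol/kg (hypertonic, groups Scr_600 and Nfat5-KO_600), the latter reached with 100 mM NaCl and 100 mM urea. There were 12 libraries, 2 in each Scr group and 4 in each Nfat5-KO group, but the table holds 1 FPKM value (a read level scaled to the length of the gene and the depth of the library) per gene and group. No SD, test or p-value could be obtained from these values, the reads behind them are unknown, and a value may rest on 1 library or on 1 of the clones.

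Claudins of neighbouring cells bind to each other across the intercellular space, and the set of claudins in a junction decides which ions can pass between the cells. In the collecting duct, Cldn3, Cldn4, Cldn7 and Cldn8 form a tight barrier that holds back cations and gives chloride a paracellular path, with Cldn8 known to bring Cldn4 to the junction. Cldn2 and Cldn10 instead form pores for small ions in more proximal segments of the nephron. NFAT5, also called TonEBP, is a transcription factor that is activated when the medium becomes hypertonic and drives genes for osmolyte uptake and synthesis.

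Cldn8 lies on the minus strand of chromosome 16 (GRCm38, chr16:88560828-88563183) and is a gene of 1 exon with 2356 exonic bases. The RT-qPCR primers of the study for this gene are shown with their place on its transcript. They belong to a separate assay from the FPKM values. As the gene has 1 exon, no intron lies between the primers. Both lie in its 3′ UTR, the sense primer at chr16:88561944-88561963 and the antisense primer at chr16:88561724-88561743, and together they span 240 bases of the transcript. Of 141767 mouse transcripts searched, those of 1 gene, Cldn8, held both primers. All letters are in lower case as no base is singled out.
CLDN8 S: atgccaatccatcacgctga
CLDN8 AS: aggcgtgtagagggaaagga

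Cldn3 and Cldn4 are neighbours on chromosome 5 with 39279 bases between them. Cldn3 has 1 exon on the plus strand (chr5:134986214-134987472) and Cldn4 has 1 exon on the minus strand (chr5:134945119-134946934), and their values parted in Scr_600, which is why their promoters are printed. The sequences are from RefSeq (GRCm38.p6), read 5′ to 3′ on the strand of the gene, from 250 bases before the start site to 50 bases after it. Capitals mark matches on either strand to TGGAAA (core letters of the tonicity-responsive enhancer that NFAT5 binds), TGACTCA (an AP-1 site) or CAGGTG (an E-box read by Snail factors, CACCTG on the other strand). No 2 matches overlap in these windows. The Cldn3 promoter is chr5:134985964-134986263 on the plus strand and the Cldn4 promoter chr5:134946885-134947184 on the minus strand.
Cldn3: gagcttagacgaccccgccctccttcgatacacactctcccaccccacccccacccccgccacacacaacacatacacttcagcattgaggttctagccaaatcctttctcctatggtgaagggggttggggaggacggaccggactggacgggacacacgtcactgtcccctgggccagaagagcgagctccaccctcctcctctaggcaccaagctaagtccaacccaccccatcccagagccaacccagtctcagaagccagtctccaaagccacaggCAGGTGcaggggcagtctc
Cldn4: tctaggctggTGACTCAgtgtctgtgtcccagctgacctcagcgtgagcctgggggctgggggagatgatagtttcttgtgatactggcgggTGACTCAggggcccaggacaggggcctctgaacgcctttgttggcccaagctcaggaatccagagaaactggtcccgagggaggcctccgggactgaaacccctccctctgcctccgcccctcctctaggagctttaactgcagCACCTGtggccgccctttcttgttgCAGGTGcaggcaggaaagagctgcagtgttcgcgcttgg

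The window of Cldn4 held the AP-1 letters at 2 places, beginning at -240 and -158 from the start site, and the E-box at -14 (on the opposite strand) and 12. That of Cldn3 held the E-box once, at 32. Of 32851 mouse promoters of the same length, 5.20% held the AP-1 letters, 20.2% the E-box and 21.4% the enhancer core. Among the 8 members with a promoter sequence, the enhancer core was found for 3 (Cldn2, Cldn6 and Cldn7), the AP-1 letters for 1 (Cldn4) and the E-box for 4 (Cldn3, Cldn4, Cldn6 and Cldn7). These 8 members have 12 promoters, and a member was counted when any of its promoters held a match. The shares above are per promoter, so the 2 are not on the same footing. No promoter sequence was at hand for Cldn8 and Cldn23. A match is a description of letters only, and no binding was measured.

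Nfat5, the targeted gene, had 5.61 FPKM in Scr_300 against 3.47 FPKM in Nfat5-KO_300, whereas under hypertonic conditions it had 7.93 FPKM in Scr_600 against 6.88 FPKM in Nfat5-KO_600. Its log2 ratios of knockout to control were -0.68 and -0.20, both under 2-fold. A small CRISPR/Cas9 edit need not remove the transcript, so these levels do not check the genotype labels. The epithelial markers Cdh1, Epcam, Krt8 and Krt18 summed to between 952.0 and 1492 FPKM per group. Of 12 principal cell markers, 6 reached 0.5 FPKM, and the defining water channel gene Aqp2 was listed at 0 in Scr_300 and stayed at or below 0.245 FPKM. The 7 intercalated cell markers summed to 3.43, 10.9, 4.49 and 9.45 FPKM in Scr_300, Scr_600, Nfat5-KO_300 and Nfat5-KO_600, most of it Car2 (2.39, 10.3, 3.99 and 8.77 FPKM), with Atp6v1b1 at 0.973, 0.542, 0.438 and 0.149 FPKM and the defining Foxi1 at 0. Of 3 distal convoluted tubule markers, Trpm6 had 0.478 to 0.770 FPKM and the others were near 0. Markers of the thick ascending limb, endothelium, fibroblasts and leukocytes were under 0.5 FPKM in every group. The 6 proximal tubule markers summed to 23.7 FPKM in Scr_300, 318.3 in Scr_600, 1.02 in Nfat5-KO_300 and 4.75 in Nfat5-KO_600, with Aqp1 at 23.6, 318.2, 0.653 and 3.51 FPKM and Lrp2 at 1.07 FPKM in Nfat5-KO_600, and with the defining Slc34a1, Slc5a2 and Slc22a6 at 0.0156 FPKM or less. The part of these shifts in the claudin values was not tested. In bulk RNA, fewer cells of a type and less RNA per cell cannot be told apart.

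Among the members, 8 of 10 reached 0.5 FPKM in at least 1 group and 2 did not. The line was dominated by Cldn6, Cldn3, Cldn4 and Cldn7, each at 42.5 FPKM or more in all 4 groups, and Cldn12 was between 25.2 and 29.4 FPKM. FPKM is a level per gene length, so genes may be set side by side on it. In Scr_300 the order was Cldn6, Cldn3, Cldn4, Cldn7, Cldn12, Cldn1, Cldn23, Cldn8, Cldn2 and Cldn10. In Scr_600 Cldn4 was in the first place. In Nfat5-KO_300 Cldn4 stood behind Cldn7, and Cldn8 ahead of Cldn23. In Nfat5-KO_600 Cldn8 stood sixth, ahead of both Cldn23 and Cldn1. As each group has a single value, neighbours in these orders could not be compared against a spread. Cldn3 (45.1), Cldn7 (44.8) and Cldn4 (42.5 FPKM) were nearly level in Nfat5-KO_600, as were Cldn4 (66.0) and Cldn7 (65.6 FPKM) in Scr_300.

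**Figure D1:**
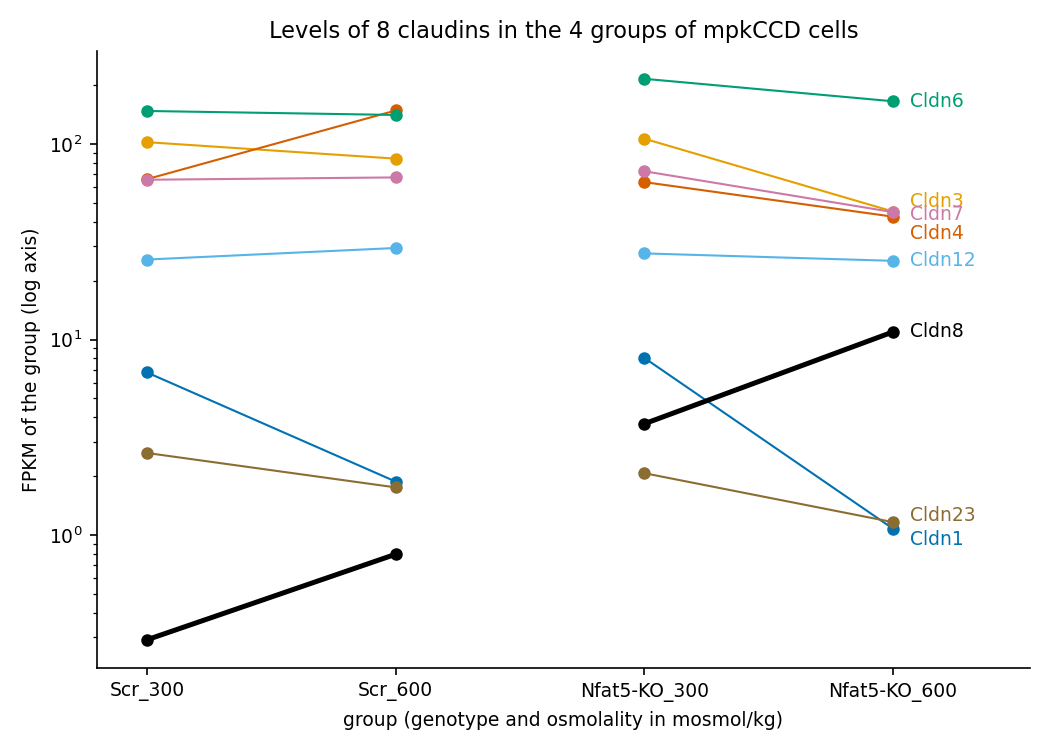
Levels of the 8 claudins that reached 0.5 FPKM, on a log axis, in the 4 groups, with lines joining the 300 and 600 mosmol/kg values of a genotype. Each point is the single deposited value of a group, so there are no error bars. Cldn8 goes from 0.291 and 0.798 FPKM in the Scr groups to 3.71 and 10.9 FPKM in the Nfat5-KO groups.

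Cldn8 was the scarce member of the collecting duct claudins. It had 0.291 FPKM in Scr_300, 0.798 in Scr_600, 3.71 in Nfat5-KO_300 and 10.9 in Nfat5-KO_600. Both knockout values were above both control values, and within each genotype the hypertonic value was the higher one. Of the 13414 genes that reached 0.5 FPKM in some group, 3.71% lay below Cldn8 in Scr_300, 13.1% in Scr_600, 40.2% in Nfat5-KO_300 and 67.8% in Nfat5-KO_600. Its place thus ranged from near the bottom of this set to above its middle. In Scr_300 Cldn8 was under the 0.5 FPKM cut-off and was in the set only through other groups. A low place there follows from how the set was built.

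Differences between groups were taken as log2 ratios of FPKM + 0.1, over genes that reached 0.5 FPKM in 1 of the 2 groups, and a difference of 2-fold or more on that scale was counted. The added 0.1 understates the difference of low genes. For Cldn8 the log2 ratio of Nfat5-KO_300 to Scr_300 was 3.28, which is 9.73-fold on this scale and 12.7-fold on plain FPKM. The ratio of Nfat5-KO_600 to Scr_600 was 3.62, or 12.3-fold, and 13.7-fold on plain FPKM. Counted from the highest ratio, Cldn8 was in place 7 of 12704 genes at 300 mosmol/kg and in place 3 of 13063 genes at 600 mosmol/kg.

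The difference between the media was smaller. Cldn8 was 2.29-fold higher in Scr_600 than in Scr_300 (log2 ratio 1.20) and 2.90-fold higher in Nfat5-KO_600 than in Nfat5-KO_300 (log2 ratio 1.53). The difference between these 2 ratios was 0.34, but it was 0.86 with a pseudocount of 1 FPKM and 0.14 with one of 0.01 FPKM. With a pseudocount of 1 FPKM in place of 0.1 the ratio of Scr_600 to Scr_300 was 0.48 and no longer reached 2-fold, since both levels were under 1 FPKM.

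The genes around Cldn8 were summarised by their medians. The 66 other genes within 10 Mb had a median log2 ratio of knockout to control of 0.12 in isotonic and 0.19 in hypertonic medium, against medians of -0.00147 and -0.02 over all genes compared. The 11 genes within 2 Mb had medians of 0.17 and 0.31. Cldn17, a claudin gene 53849 bases away on the same strand, was listed at 0 in 3 groups and had 0.0123 FPKM in Nfat5-KO_600.

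Cldn3, a sealing claudin, had 102.1 FPKM in Scr_300, 84.1 in Scr_600, 106.4 in Nfat5-KO_300 and 45.1 in Nfat5-KO_600. The first 3 values were close to each other and the fourth was the low one. Its log2 ratio of knockout to control was 0.06 at 300 mosmol/kg and -0.90 at 600 mosmol/kg. Its ratio of 600 to 300 mosmol/kg was -0.28 for Scr and -1.24 for Nfat5-KO cells, a 2.35-fold lower level in the latter (-0.99, just short of 2-fold, with the FPKM sums of the groups made equal). The gene overlaps Wbscr25 on the opposite strand, which had 0.197 to 0.277 FPKM. Whether reads were counted by strand is not given in the sources used here.

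Cldn4, the partner of Cldn8 in the chloride path, had, of the 8 members with ratios, the widest gap between its hypertonic ratios in the 2 genotypes. It had 66.0 FPKM in Scr_300, 148.2 in Scr_600, 63.8 in Nfat5-KO_300 and 42.5 in Nfat5-KO_600. Only Scr_600 was high, and the isotonic groups were alike. From 300 to 600 mosmol/kg the level was 2.24-fold higher in Scr cells (log2 ratio 1.17) and lower in Nfat5-KO cells (log2 ratio -0.59). The latter was under 2-fold, and was -0.34 with the FPKM sums made equal. The difference of the ratios in the 2 genotypes was -1.75. Of the 13414 genes with a value, 3.16% had a hypertonic ratio lower by 1 or more in Nfat5-KO cells and 3.88% one higher by as much, and Cldn4 was the only 1 of 8 members in either set (on the lower side), with Cldn1 (-0.99) and Cldn3 (-0.96) just short of it. Whether the difference exceeds the spread between libraries was not tested here.

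Compared across genotypes, Cldn4 had a log2 ratio of -0.05 in isotonic and of -1.80 in hypertonic medium, where it was 3.48-fold lower in Nfat5-KO cells. This was place 150 from the lowest of 13063 genes. The 199 genes within 10 Mb of Cldn4 had a median of 0.11 in the same comparison. Cldn3, in that same stretch, was not 2-fold lower there. The ratio of the Cldn4 level to the Cldn3 level, which no scaling of a group can alter, was 0.647 in Scr_300, 1.76 in Scr_600, 0.600 in Nfat5-KO_300 and 0.941 in Nfat5-KO_600.

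Cldn7, found along the basolateral membrane as well as in the junction, had 65.6 FPKM in Scr_300, 67.4 in Scr_600, 72.5 in Nfat5-KO_300 and 44.8 in Nfat5-KO_600. As for Cldn3, the low group was Nfat5-KO_600, but no ratio reached 2-fold. The log2 ratios were 0.14 and -0.59 for knockout to control at 300 and 600 mosmol/kg, and 0.04 and -0.69 for 600 to 300 mosmol/kg in Scr and Nfat5-KO cells.

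Set beside the other collecting duct claudins, Cldn8 was the only one of the 4 with a higher level in Nfat5-KO_600 than in Scr_600. There were 226.5 units of Cldn4 per unit of Cldn8 in Scr_300 and 185.8 in Scr_600. In Nfat5-KO_300 there were 17.2, and in Nfat5-KO_600 there were 3.88. In Nfat5-KO_600 the level of Cldn8 was the highest and that of Cldn4 the lowest of the 4 groups. The ratio of Cldn8 to Cldn3 likewise was 0.00285 in Scr_300, 0.00949 in Scr_600, 0.0349 in Nfat5-KO_300 and 0.242 in Nfat5-KO_600.

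**Figure D2:**
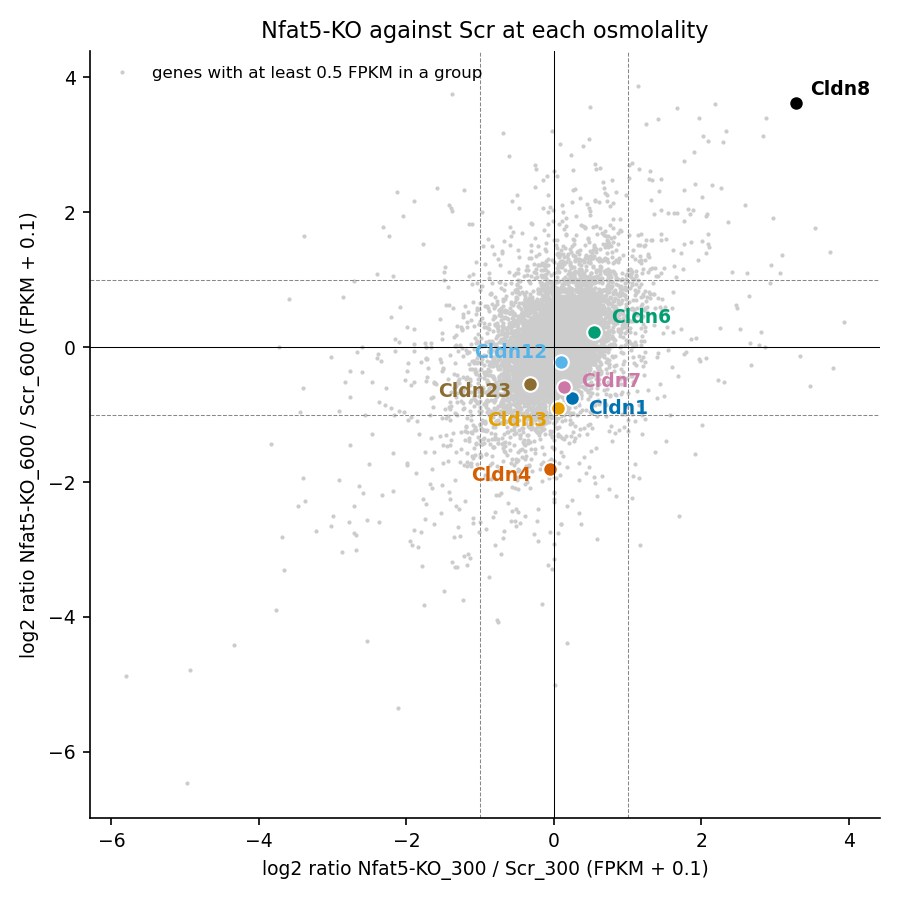
Knockout over control (log2 ratio), isotonic on the x axis and hypertonic on the y axis, for all genes that reached 0.5 FPKM (grey) and for 8 claudins (coloured), with dashed lines at 2-fold. Cldn8 lies at 3.28 and 3.62 in the upper right, Cldn4 at -0.05 and -1.80, and the other 6 within 2-fold on both axes.

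The channel-forming claudins were hardly detected. Cldn2, the cation and water pore of the proximal tubule, had 0.0491 FPKM in Scr_300, 0.00428 in Scr_600, 0.0392 in Nfat5-KO_300 and 0.0648 in Nfat5-KO_600. Cldn10, whose isoforms form anion or cation pores, was listed at 0 in 3 groups and at 0.00297 FPKM in Nfat5-KO_300. Levels this low give no ratio.

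Cldn6, best known from embryonic epithelia and silent in most adult tissues, was the most abundant member in 3 of the 4 groups. It had 147.4 FPKM in Scr_300, 140.6 in Scr_600, 215.3 in Nfat5-KO_300 and 165.2 in Nfat5-KO_600. Both Nfat5-KO values were above both Scr values, by log2 ratios of 0.55 in isotonic and 0.23 in hypertonic medium, neither of them 2-fold. The hypertonic ratios were -0.07 for Scr (0.06 with the FPKM sums made equal) and -0.38 for Nfat5-KO. Cldn6 lies on chromosome 17 (chr17:23679249-23682446), 137 bases from Cldn9, which is transcribed from the other strand. Cldn9, one of 25 further claudin genes of the table, had 22.9, 22.0, 12.4 and 23.3 FPKM in Scr_300, Scr_600, Nfat5-KO_300 and Nfat5-KO_600. It was low where Cldn6 was high, so that the ratio of Cldn6 to Cldn9 was 17.3 in Nfat5-KO_300 and between 6.40 and 7.10 in the other groups.

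Cldn1, a barrier-forming claudin of skin and many epithelia, was the member with the lowest hypertonic ratios. It had 6.79 FPKM in Scr_300, 1.88 in Scr_600, 8.06 in Nfat5-KO_300 and 1.08 in Nfat5-KO_600. Both isotonic values were above both hypertonic ones. The hypertonic level was 3.48-fold lower in Scr cells (log2 ratio -1.80) and 6.92-fold lower in Nfat5-KO cells (log2 ratio -2.79). These were places 91 of 12929 and 14 of 12982 genes, counted from the lowest ratio. Against Scr cells, Nfat5-KO cells had a log2 ratio of 0.24 in isotonic medium, and one of -0.75 in hypertonic medium.

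Cldn12, which lacks the PDZ-binding end by which most claudins attach to scaffold proteins, had the narrowest range of ratios. It had 25.6, 29.4, 27.6 and 25.2 FPKM in Scr_300, Scr_600, Nfat5-KO_300 and Nfat5-KO_600, and its 4 log2 ratios lay between -0.22 and 0.20. Cldn23 had 2.63, 1.75, 2.07 and 1.16 FPKM in the same order. Its ratios were all negative, from -0.33 to -0.78, and none reached 2-fold.

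**Figure D3:**
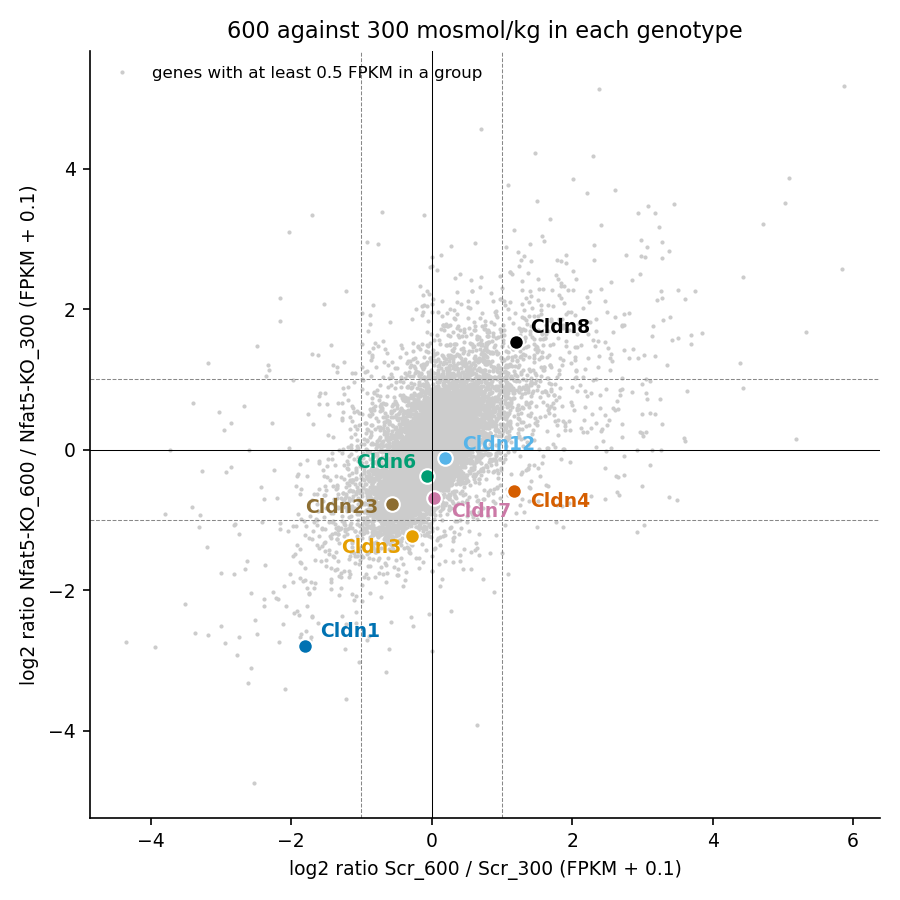
Hypertonic over isotonic (log2 ratio), Scr cells on the x axis and Nfat5-KO cells on the y axis, for all genes that reached 0.5 FPKM (grey) and 8 claudins (coloured), with dashed lines at 2-fold. Cldn8 is above 2-fold on both axes, Cldn1 below it on both, and Cldn4 at 1.17 and -0.59.

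Counted over the 8 members with enough signal, the knockout at 300 mosmol/kg was accompanied by 1 gene at least 2-fold higher (Cldn8) and 0 lower, where 1.73% of 12704 genes were higher and 2.44% lower. The median log2 ratio of the 8 was 0.12. At 600 mosmol/kg 1 was higher (Cldn8) and 1 lower (Cldn4), where 3.76% of 13063 genes were higher and 3.68% lower, and the median was -0.57 beside -0.02 for all genes. There 6 of the 8 were on the lower side. These comparisons share no group with each other, but each of their groups recurs in a hypertonic comparison. The 4 comparisons are thus not independent.

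In Scr cells the hypertonic medium was accompanied by 2 members at least 2-fold higher (Cldn4 and Cldn8) and 1 lower (Cldn1), where 4.81% of 12929 genes were higher and 2.86% lower. The members were evenly divided, with 4 on each side. In Nfat5-KO cells 1 was higher (Cldn8) and 2 were lower (Cldn1 and Cldn3), where 6.25% of 12982 genes were higher and 4.11% lower. The median of the 8 was -0.64 beside -0.04 for all genes, and 7 of 8 were on the lower side (6 with the FPKM sums made equal, which put Cldn12 at 0.12). Cldn8 was the only member past 2-fold in all 4 comparisons. No test of these counts against the shares of all genes was made.

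The summed level of the 35 claudin genes in the table was 440.0 FPKM in Scr_300, 497.3 in Scr_600, 512.7 in Nfat5-KO_300 and 360.9 in Nfat5-KO_600. These levels were not scaled to the FPKM sum of all genes, which also was lowest in Nfat5-KO_600 (212247, against 253756 in Scr_300). Beside the 10 members, Cldn9 and Cldn15 reached 0.5 FPKM, and 12 of the 35 genes were listed at 0 in every group. Cldn15, a cation pore of the intestine, had 0.377, 0.757, 0.514 and 0.888 FPKM in the order Scr_300, Scr_600, Nfat5-KO_300 and Nfat5-KO_600. Within the claudin sum the share of Cldn6 was 33.5% in Scr_300, 28.3% in Scr_600, 42.0% in Nfat5-KO_300 and 45.8% in Nfat5-KO_600. Cldn4 made up 29.8% in Scr_600 and 11.8% to 15.0% in the other groups. Cldn3 made up 23.2% in Scr_300 and 12.5% in Nfat5-KO_600. Cldn8, the share of which was 0.0662% in Scr_300 and 0.160% in Scr_600, reached 0.723% in Nfat5-KO_300 and 3.03% in Nfat5-KO_600.

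**Figure D4:**
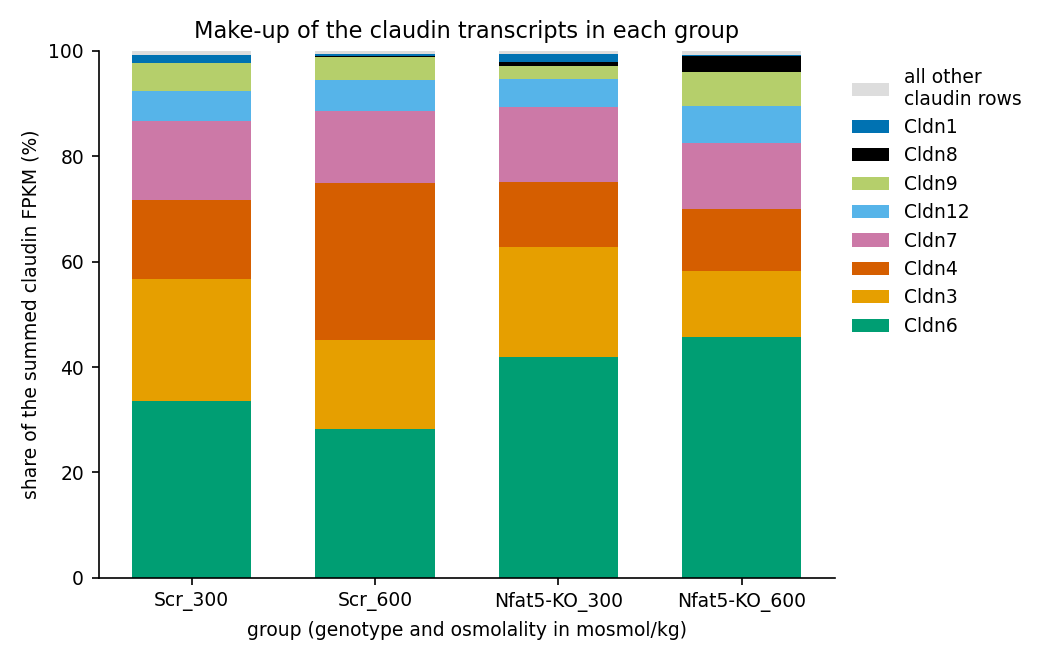
Share of the summed claudin FPKM (%) taken by each claudin in the 4 groups, as stacked bars that add up to 100%. Cldn4 is widest in Scr_600 (29.8%), and the black segment of Cldn8 is widest in Nfat5-KO_600 (3.03%).

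Likeness of pattern was measured as the Euclidean distance between the 4 log2(FPKM + 0.1) values of 2 genes after their own mean was removed, over 11920 genes that reached 1 FPKM. The nearest to Cldn8 were Igdcc3 (0.884), Hsd11b2 (0.963), Alcam (1.03), Gpr153 (1.18) and Cbr3 (1.21). Hsd11b2, which encodes the enzyme that protects the mineralocorticoid receptor from glucocorticoids in principal cells, had 0.383 FPKM in Scr_300, 0.655 in Scr_600, 1.95 in Nfat5-KO_300 and 6.18 in Nfat5-KO_600. Its groups stood in the same order as those of Cldn8. Alcam, a cell adhesion molecule of the immunoglobulin family, had 0.0337, 0.234, 0.506 and 3.97 FPKM in the same order of groups. Igdcc3 had 0.00868, 0.0509, 0.679 and 1.22 FPKM, Gpr153 had 0.281, 0.858, 1.58 and 4.95 FPKM, and Cbr3, a carbonyl reductase gene, had 0.223, 0.198, 1.16 and 3.05 FPKM. All 5 were highest in Nfat5-KO_600 and low in the Scr groups, and with a pseudocount of 1 FPKM 1 of the 5 (Hsd11b2) was still among the nearest.

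No other member that reached 1 FPKM was close to Cldn8, and claudins outside the members were not looked up. The nearest member, Cldn6, was in place 2155 with a distance of 3.47, and Cldn4 and Cldn1 were in places 11551 and 11814. The closest pairs of members were Cldn3 with Cldn23 (0.378) and Cldn7 with Cldn12 (0.448). Gata3, a transcription factor of principal cells, was in place 7 from Cldn8 with a distance of 1.34.

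The principal cell markers were followed beside Cldn8, since their sum also was highest in Nfat5-KO_600. The sum over all 12 was 50.7 FPKM in Scr_300, 34.8 in Scr_600, 69.6 in Nfat5-KO_300 and 100.4 in Nfat5-KO_600. The largest part of it was Tfcp2l1, a transcription factor of the collecting duct, with 40.6, 25.1, 48.9 and 53.4 FPKM. Gata3 had 3.41, 4.33, 11.8 and 30.0 FPKM, and Scnn1a, the alpha subunit of the epithelial sodium channel, had 2.95, 1.31, 3.56 and 7.03 FPKM. Kcnj1, the potassium channel ROMK, went the other way, with 0.725 FPKM in Scr_600, only 0.0740 in Nfat5-KO_600 and a listed 0 at 300 mosmol/kg. Between the hypertonic groups 4 of 6 markers with enough signal were at least 2-fold higher in Nfat5-KO cells (Gata3, Hsd11b2, Scnn1a and Tfcp2l1) and 1 was lower (Kcnj1). Of all genes compared, 3.76% were higher and 3.68% lower, and the counts were not tested against these shares. The remaining marker of the 6, Aqp3, had 2.91, 2.07, 2.93 and 2.82 FPKM. Scnn1b, Scnn1g and Fxyd4 did not reach 0.5 FPKM in any group. The markers Avpr2 and Aqp4 stayed below 0.1 FPKM in all groups. The part of this shift in the level of Cldn8 was not tested.

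The genes for proteins that anchor claudins or share their junction were set beside them. Of 29 tight junction partners, 24 had enough signal in each comparison. None was 2-fold different between Nfat5-KO_300 and Scr_300, with log2 ratios from -0.34 to 0.51. Tjp1 and Tjp3, scaffold proteins that bind the tails of claudins, had ratios of 0.10 and -0.00796 in this comparison and -0.10 and 0.03 between Nfat5-KO_600 and Scr_600. Tjp1 was lower in both hypertonic groups, with 42.5 FPKM in Scr_300, 25.5 in Scr_600, 45.5 in Nfat5-KO_300 and 23.8 in Nfat5-KO_600. This was less than 2-fold in each genotype.

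Ocln, the membrane protein occludin, had 10.9 to 13.9 FPKM, and F11r, the adhesion molecule JAM-A, had 25.9 to 32.4 FPKM. Cgn, the cytoplasmic plaque protein cingulin, was higher in Nfat5-KO cells by log2 ratios of 0.49 and 0.59 at 300 and 600 mosmol/kg. The list held 2 genes with a 2-fold difference, 1 each in 3 comparisons and 0 in the other, which is near or below the shares of all genes given above (1.73% to 6.25% in a direction). Igsf5, a junctional adhesion molecule, had 1.86 FPKM in Scr_300, 5.20 in Scr_600, 2.02 in Nfat5-KO_300 and 2.37 in Nfat5-KO_600. As with Cldn4, Scr_600 was its high group, although its 2 Nfat5-KO values were close to each other. Ybx3, the ZO-1-binding factor ZONAB, had 131.1, 102.6, 176.0 and 67.3 FPKM, and its hypertonic ratio in Nfat5-KO cells was -1.39.

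Of 16 genes of adherens junctions and desmosomes, 14 had enough signal, and 1 was 2-fold different between Nfat5-KO_300 and Scr_300, 0 between Nfat5-KO_600 and Scr_600, 1 across the media for Scr and 2 for Nfat5-KO cells. These counts of 0 to 2 of 14 genes were not tested against the shares of all genes (from 1.73% higher and 2.44% lower in the first comparison to 6.25% and 4.11% in the last). The single gene higher in Nfat5-KO_300 was the desmosomal cadherin gene Dsc2 (log2 ratio 1.01), which was also the 1 that was lower in the hypertonic Nfat5-KO group (-1.18). Cdh16, the kidney-specific cadherin, had 33.5 FPKM in Scr_300, 186.1 in Scr_600, 29.7 in Nfat5-KO_300 and 128.9 in Nfat5-KO_600, so that it was high in both hypertonic groups. Cdh1, E-cadherin, had 72.7 to 103.3 FPKM.

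Among 29 genes listed here as candidate regulators of claudins, 21 to 23 had enough signal. The list holds transcription factors, proteases, kinases and binding partners, and an action of each on claudins was not tested. Between Nfat5-KO_600 and Scr_600, 3 were at least 2-fold higher (Gata3, Tfcp2l1 and Snai1) and 3 lower (Ehf, Pax2 and Sgk1), where 3.76% of all genes were higher and 3.68% lower. Between Nfat5-KO_300 and Scr_300, 1 was higher (Gata3) and 1 lower (Pax2), where 1.73% of all genes were higher and 2.44% lower. In Scr cells the hypertonic medium went with 2 higher (Pax2 and Sgk1) and 0 lower, beside 4.81% and 2.86% of all genes. In Nfat5-KO cells it went with 2 higher (Pax2 and Gata3) and 0 lower, beside 6.25% and 4.11%. These counts were not tested against the shares of all genes. Gata3 and Tfcp2l1 are also in the list of principal cell markers.

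Pax2, a transcription factor of kidney development, had 6.59 FPKM in Scr_300, 43.7 in Scr_600, 2.23 in Nfat5-KO_300 and 7.85 in Nfat5-KO_600. Sgk1, a kinase that stimulates sodium transport, had 0.262, 4.28, 0.444 and 0.513 FPKM, and its high group alone was Scr_600, as for Cldn4. Ehf, an epithelial ETS factor, had 24.7, 36.1, 15.9 and 15.8 FPKM in the same order of groups. Its highest value also was that of Scr_600. Snai1, a repressor of epithelial genes, stayed at 0.181 to 0.750 FPKM.

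Epcam, a membrane protein that binds Cldn7 and Cldn1 and protects them from degradation, had 303.6, 279.3, 232.8 and 211.3 FPKM in Scr_300, Scr_600, Nfat5-KO_300 and Nfat5-KO_600, and was lower in Nfat5-KO cells by log2 ratios of -0.38 and -0.40. Klhl3, the ubiquitin ligase adaptor that targets Cldn8, had at most 0.00813 FPKM, and Wnk4, a kinase acting on claudins, had 12.2 to 16.7 FPKM. Grhl2, a transcription factor that activates Cldn4 in other epithelia, had 9.11 FPKM in Scr_300, 10.0 in Scr_600, 7.90 in Nfat5-KO_300 and 6.80 in Nfat5-KO_600, all within 2-fold.

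**Figure D5:**
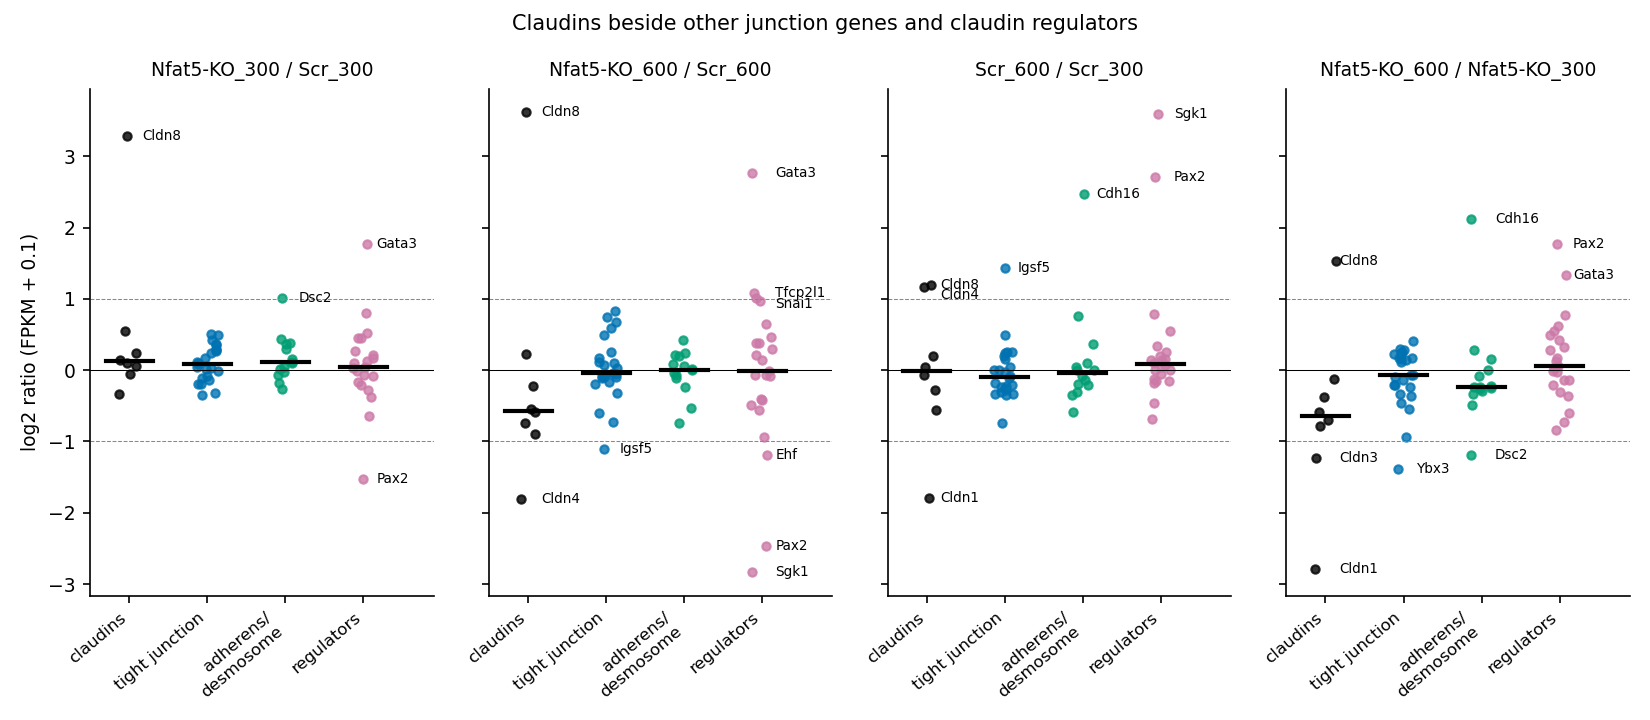
Log2 ratios in the 4 comparisons (panels) for 8 claudins, tight junction partners, genes of adherens junctions and desmosomes, and listed candidate regulators of claudins. Each point is a gene, bars are medians, dashed lines mark 2-fold and genes past it are named. Cldn8 is above 2-fold in all 4 panels, and 0 tight junction partners are past it in the first.

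Reads could in principle be shared between claudin genes of like sequence. Over the 66 pairs that 12 claudin genes form, the longest run of identical bases was 37 (Cldn6 and Cldn9), followed by 35 (Cldn3 and Cldn4), and 0 pairs shared 50 bases or more. The read length and the treatment of reads with several positions are not given in the sources used here.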

How the data were processed

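Per the labels and the study's methods, poly-A RNA of 12 mpkCCD cultures was made into libraries (NEBNext Ultra) and sequenced in pairs. The authors removed low-quality reads, mapped the rest to GRCm38 (mm10) by HISAT2, obtained gene counts by HTSeq and divided by gene length and depth. The deposited FPKM values give 1 value per group. How the libraries were combined, their depth and the annotation release are not given in the sources used here. Values of libraries or clones were not analysed here.

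Of 54828 named rows, 2425 without values, 311 exact duplicates and 37 symbols with several rows were left out, which gave 52015 genes. FPKM summed to 253756 in Scr_300, 231932 in Scr_600, 251080 in Nfat5-KO_300 and 212247 in Nfat5-KO_600. Log2 ratios of FPKM + 0.1 were taken in 4 comparisons, where a gene needed 0.5 FPKM in 1 of the 2 groups. A single gene got a ratio where both groups had 0.1 FPKM or more. Positions are from GENCODE M21 (13266 of 13414 genes matched by symbol). The genes named were the members, other claudins at 0.5 FPKM, listed junction genes past 2-fold or of known role, and the 5 genes nearest to Cldn8. Cldn17, Wbscr25 and markers serve as context, and the place of Gata3 beside Cldn8 was noted after its value was seen. The junction and regulator lists leave out 1 gene each that is not reported here. The members and lists were chosen with earlier results of these data known. Steps were tested on simulated data for Nfat5-KO_300 versus Scr_300, where 191 of 200 altered genes among 13414 were recovered and 0 others called. The spread between the real libraries is unknown, so the accuracy of 2-fold differences in the measured values was not tested. Other settings tried were a pseudocount of 1 or of 0.01, omission of the filter, a filter on a mean of 1 FPKM, median-of-ratios factors (0.990 to 1.03) and equal FPKM sums, the last chosen after seeing the data. Python 3.11.15, numpy 2.4.6, pandas 2.3.3 and matplotlib 3.10.9 were used.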

Additional observations from a re-analysis of the deposited data

Results flagged for a closer look

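The hypertonic medium went with opposite differences of Cldn4 in the 2 genotypes, with a log2 ratio of 600 to 300 mosmol/kg of 1.17 in Scr cells and of -0.59 in Nfat5-KO cells. The difference between these ratios (Nfat5-KO minus Scr) was -1.75, or -1.64 with the FPKM sums made equal. The ratio in Nfat5-KO cells was under 2-fold, and was -0.34 with equal sums. The difference was not tested here, as each group has 1 value.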

How the results depend on the processing

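No paired analysis was possible because the table holds 1 value per group, and for the same reason no library could be left out in turn. Of 192 values of member ratios under 6 settings, 190 kept their side of 2-fold. The exceptions were Cldn8 in Scr cells (0.48 with a pseudocount of 1 FPKM) and Cldn3 in Nfat5-KO cells (-0.99 with equal FPKM sums), and 2 ratios under 2-fold changed sign. Omission of the filter and the filter on a mean of 1 FPKM only change which genes are kept. The member ratios under these settings were therefore the same by construction and are no check of them. Members with a hypertonic ratio differing by 1 or more between genotypes numbered 1 as reported, 2 with a pseudocount of 0.01 (Cldn1 and Cldn4) and 3 with median-of-ratios factors (Cldn1, Cldn3 and Cldn4). Of the 5 genes nearest to Cldn8, 1 was kept with a pseudocount of 1. Counts over all genes moved more. In the order Nfat5-KO_300 versus Scr_300, Nfat5-KO_600 versus Scr_600, Scr_600 versus Scr_300 and Nfat5-KO_600 versus Nfat5-KO_300, they were 530, 972, 992 and 1346 as reported, 135, 338, 375 and 489 with a pseudocount of 1, 1228, 1884, 1835 and 2211 with no filter, and 280, 523, 554 and 845 with a mean of at least 1 FPKM. Equal sums shifted the median log2 ratio of the genes compared by 0.01, 0.13, 0.13 and 0.24. The split of higher to lower genes went from 491 and 481 to 654 and 407 in the second comparison. In the fourth it went from 812 and 534 to 1318 and 274. The depth of the libraries is unknown, so low levels such as that of Cldn8 in Scr cells have no counting limit.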
